A study of Mus musculus with 8 samples.

Results

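Glutathione synthesis and the reduction of glutathione and thioredoxin were followed through 10 genes in the ileum of mice that lack Slc51a: Gclc, Gclm, Gss, Gsr, Slc7a11, Txn1, Txnrd1, Txnrd2, Srxn1 and Glrx. All probe sets of the array annotated to exactly 1 of these symbols were taken, which gave 19 of the 45037 tested. Transcripts were measured with 3' expression arrays, 1 array per animal sample, in 4 wild-type and 4 Slc51a knockout males about 2 months old that had fasted for 4 h. Both groups were on a C57BL/6 background, and the labels give neither the knockout allele nor whether controls were littermates. Slc51a encodes a subunit of the transporter that carries bile acids out of the ileal enterocyte toward the blood. The values are normalised log2 signals, on which a difference of 1 is a doubling, and every difference below is knockout minus wild type. Slc51a itself lay between 11.29 and 11.41 on the wild-type arrays and between 4.50 and 4.68 on the knockout arrays. The position of its probe set relative to the deleted part is not given in the sources used here.

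Glutathione is a small thiol made in the cytosol in a pair of steps: glutamate-cysteine ligase joins glutamate to cysteine, and glutathione synthetase adds glycine. Cysteine is the scarce substrate, and it reaches the cell as cystine or is made from methionine. Once oxidised, glutathione is returned to its thiol form by glutathione reductase, and thioredoxin by the selenoenzymes called thioredoxin reductases, both at the expense of NADPH. In the gut these thiols serve the epithelium against peroxides and reactive food and bile constituents, and the transcription factor NRF2 is known to switch on many of the genes.

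Of the 10 genes, 7 were higher in the knockout, 1 was lower and 2 did not pass an adjusted p of 0.05 in limma, each gene being read at its brightest probe set. Both subunits of glutamate-cysteine ligase, the synthetase Gss, the reductase Gsr, thioredoxin Txn1 and both thioredoxin reductases rose, and the glutaredoxin Glrx fell. The cystine importer Slc7a11 and the sulfiredoxin Srxn1 did not pass. Among all 17097 genes 16.3% were called higher and 12% lower, and among the 11094 with a signal at or above the median probe set in their brighter genotype 24.2% and 16.9%; Slc7a11 was the member below that level. The share of members that rose was above each of these. The members were chosen with earlier results of these data known, so comparing them with all genes is no test. Of the 19 probe sets, 8 were called higher, 2 lower and 9 not, where 11.8% of all probe sets were called higher and 9.81% lower. The median difference was 0.42 over the 10 genes and 0.011 over all genes. Over the 19 member probe sets it was 0.18, and over all probe sets 0.0048. All knockout arrays lay above all wild-type arrays for 9 member probe sets, against 13.3% of the whole array, and below them for 2, against 10.5%.

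**Figure D1:**
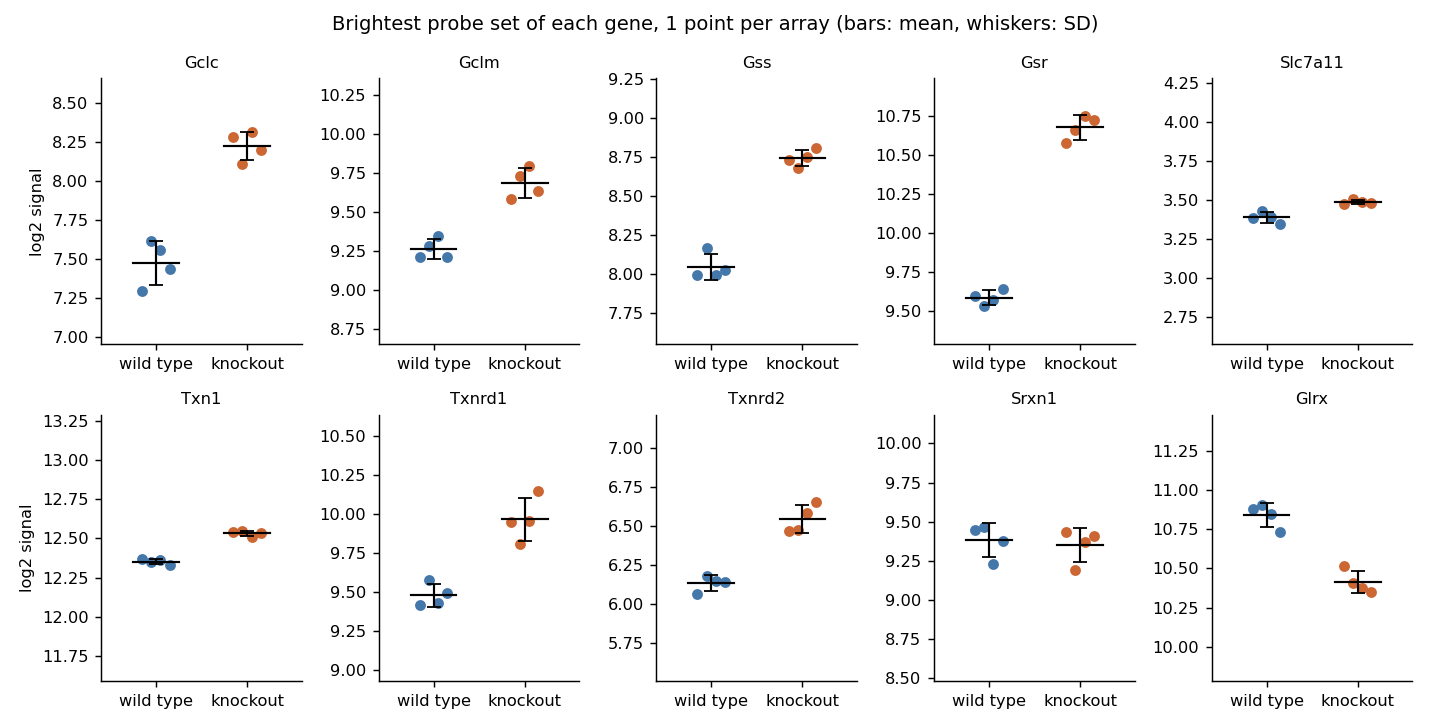
Log2 signal of the brightest probe set of each of the 10 genes, 1 point per array, with the mean and SD of 4 arrays per genotype; every panel spans the same height in log2 units. Gsr shows the widest gap of the genes shown, Txn1 a narrow one with little spread, Glrx is the panel in which the knockout arrays lie below, and the Srxn1 arrays overlap.

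Regulatory sequence next to the start was taken from a table of RefSeq windows (GRCm38.p6), each of 300 bases from 250 before to 50 after a start; it gave 11 windows for 8 of the 10 genes, and Gclc and Gsr were not analysed here. The windows were searched on both strands for the core of the antioxidant response element, TGACNNNGC, to which NRF2 binds, and for the amino acid response element TTGCATCA, to which ATF4 binds. No member window held both motifs. The antioxidant core was in 3 of the 11 windows, those of Gclm, Txnrd1 and Srxn1, and in 12.4% of all 32851 windows. The amino acid element was in 1, that of Slc7a11, which held it in both orientations, and in 0.895% of all windows. The core was in windows of Gclm and Txnrd1, which rose, and of Srxn1, which did not pass. Neither motif was in windows of Gss, Txn1 and Txnrd2, which rose, or of Glrx, which fell. Sequence outside these windows was not searched, and a link between matches and calls was not tested. The stretches of Gclm, Txnrd1 and Slc7a11 are shown because their matches lie before the start. Capitals mark the matched letters, each stretch reads 5′ to 3′ on the strand of the gene, and a match is a run of letters, not a shown binding site.
Gclm: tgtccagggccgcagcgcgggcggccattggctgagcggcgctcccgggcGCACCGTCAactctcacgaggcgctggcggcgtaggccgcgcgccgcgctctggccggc
Txnrd1: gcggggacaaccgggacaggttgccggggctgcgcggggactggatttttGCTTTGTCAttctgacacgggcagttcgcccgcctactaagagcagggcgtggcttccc
Slc7a11: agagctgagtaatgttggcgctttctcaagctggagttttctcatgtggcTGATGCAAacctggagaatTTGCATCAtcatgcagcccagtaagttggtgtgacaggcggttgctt
The Gclm stretch is chr3:122245373-122245481, plus strand, and its match, on the opposite strand, begins 134 bases before the start. The Txnrd1 stretch is chr10:82859064-82859172, plus strand, with a match on the opposite strand that begins 92 bases before 1 of the 3 starts listed for the gene. The Slc7a11 stretch is chr3:50443614-50443729, minus strand, with matches that begin 66 and 47 bases before the start. The Txnrd1 and Slc7a11 stretches lie inside the annotated span of their genes, downstream of a more distal start, and the Gclm stretch lies outside its gene. The Srxn1 match, TGACCTAGC, lies after the start and is not shown.

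Gclc, the catalytic subunit of glutamate-cysteine ligase, which sets the pace of glutathione synthesis, was at 7.30, 7.61, 7.56 and 7.44 on the wild-type arrays and at 8.28, 8.11, 8.31 and 8.19 on the knockout arrays. The groups did not overlap, and the wild-type arrays were the more spread. Gclc rose by 0.75 (SE 0.07, adjusted p = 4.34e-05 and 95% confidence interval 0.58 to 0.91), a 1.68-fold difference. Gclm, the modifier subunit that raises the activity of the ligase, was at 9.21, 9.28, 9.35 and 9.21 in wild type and at 9.58, 9.73, 9.80 and 9.63 in the knockout. Every knockout array was again above every wild-type array, at a smaller distance. Gclm rose by 0.42 (SE 0.06, adjusted p = 0.000387), 1.34-fold, with a log2 interval of 0.29 to 0.55.

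Gss, the synthetase that completes the tripeptide, was at 7.997, 8.16, 7.99 and 8.02 in wild type and at 8.73, 8.68, 8.75 and 8.81 in the knockout. Wild type 2 stood a little above the other wild-type arrays, as it did for Gclc, and the knockout arrays were close together (SD 0.05). Gss rose by 0.70 (SE 0.05, adjusted p = 9.61e-06), 1.62-fold, with a log2 interval of 0.58 to 0.82.

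Gsr, the NADPH-dependent glutathione reductase, had the largest difference of the members and a pair of probe sets that gave nearly the same one. The first read 9.60, 9.53, 9.57 and 9.64 in wild type and 10.57, 10.66, 10.75 and 10.72 in the knockout. The second read 9.13, 9.01, 9.04 and 9.22 against 10.16, 10.19, 10.28 and 10.20. On both, the nearest arrays of the genotypes were far apart beside the spread within either. The first rose by 1.09 (SE 0.05, adjusted p = 6.07e-07), 2.13-fold with a log2 interval of 0.97 to 1.202, and the second by 1.11 (SE 0.06, adjusted p = 9.82e-07). Gsr was the only 1 of the 10 genes higher by at least 2-fold; 0.257% of all genes were.

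Slc7a11, the light chain of the cystine-glutamate antiporter, was dim on both of its probe sets, whose mean signals ranked at the 11.9 and 9.69 percentile of all probe sets. The first read 3.39, 3.43, 3.39 and 3.35 in wild type and 3.47, 3.51, 3.49 and 3.48 in the knockout. These groups did not overlap, but the difference of 0.098 (SE 0.04) did not pass (log2 interval 0.0067 to 0.19, adjusted p = 0.128). The second read 3.27, 3.47, 3.43 and 3.43 against 3.25, 3.42, 3.25 and 3.46, with overlapping groups and a difference of -0.055 (95% interval -0.20 to 0.091, adjusted p = 0.639). The table holds no detection calls, and expression of the gene in this tissue is not shown.

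Txn1, cytosolic thioredoxin, the small dithiol protein that reduces peroxiredoxins and ribonucleotide reductase, was among the brightest transcripts of the array, at the 99.8 percentile. It was at 12.37, 12.35, 12.36 and 12.33 in wild type and at 12.54, 12.55, 12.51 and 12.54 in the knockout. The arrays of a genotype differed very little, and the genotypes did not overlap. Txn1 rose by 0.18 (SE 0.04, adjusted p = 0.00745), 1.13-fold, with a log2 interval of 0.092 to 0.27. With cyclic loess normalisation the difference was 0.077 (adjusted p = 0.227). Leaving out wild type 2, knockout 3 and knockout 4, whose hybridization controls were the dimmest, gave 0.19 (adjusted p = 0.0627). That fit has fewer arrays, and its difference was no smaller than the main one.

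Txnrd1, the cytosolic thioredoxin reductase, was at 9.42, 9.58, 9.43 and 9.50 in wild type and at 9.95, 9.81, 9.96 and 10.15 in the knockout. Knockout 4 was the highest array and knockout 2 the lowest of its group, and the groups did not overlap. Txnrd1 rose by 0.49 (SE 0.07, adjusted p = 0.000533), 1.40-fold, with a log2 interval of 0.33 to 0.64. The stretch printed for Txnrd1 precedes 1 of its starts, and its probe set, which reads the 3' end, does not tell which start was used.

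Txnrd2, the mitochondrial thioredoxin reductase, has 4 probe sets that did not give the same difference. The brightest was at 6.06, 6.18, 6.14 and 6.14 in wild type and at 6.47, 6.47, 6.58 and 6.65 in the knockout, with no overlap, and rose by 0.41 (SE 0.06, adjusted p = 0.000326), 1.33-fold, with a log2 interval of 0.29 to 0.53. The other 3 lay at mean signals of 4.79 to 4.999, near the median of all probe sets, 4.58, and their groups overlapped. Of these, one differed by 0.20 (SE 0.07, adjusted p = 0.0624), one by -0.036 (interval -0.20 to 0.13, adjusted p = 0.798) and one by 0.091 (interval -0.039 to 0.22, adjusted p = 0.337). Knockout 4 was the lowest knockout array on the first and the last of these, and without it they passed, at 0.25 (adjusted p = 0.0198) and 0.15 (adjusted p = 0.0484). The first of them passed in 8 of its alternatives in all, with sizes of 0.20 to 0.25. With the mean of the 4 probe sets Txnrd2 differed by 0.17 (adjusted p = 0.0166), so the size of its rise depends on the probe set.

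Srxn1, sulfiredoxin, which repairs overoxidised peroxiredoxins, also has 4 probe sets, and none of them passed. The brightest was at 9.45, 9.47, 9.23 and 9.38 in wild type and at 9.43, 9.19, 9.37 and 9.41 in the knockout, a difference of -0.029 with an interval of -0.18 to 0.12 (adjusted p = 0.8289). The second was at 8.24, 8.24, 7.996 and 8.20 against 8.59, 8.24, 8.30 and 8.48, a difference of 0.23 with an interval of 0.05 to 0.42 before adjustment (adjusted p = 0.0728). Knockout 2 was the lowest knockout array and wild type 3 the lowest wild-type array on each of these. Without knockout 2 the second passed at 0.29 (adjusted p = 0.0343), and it also passed with the replicate number as a block (adjusted p = 0.0350), with median centring (0.0480) and with eBayes trend and robust (0.0468). The remaining pair differed by 0.10 (adjusted p = 0.449) and -0.093 (adjusted p = 0.373). The interval of the brightest leaves room for a rise of up to 1.09-fold and a fall to 0.881 of the wild-type level.

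**Figure D2:**
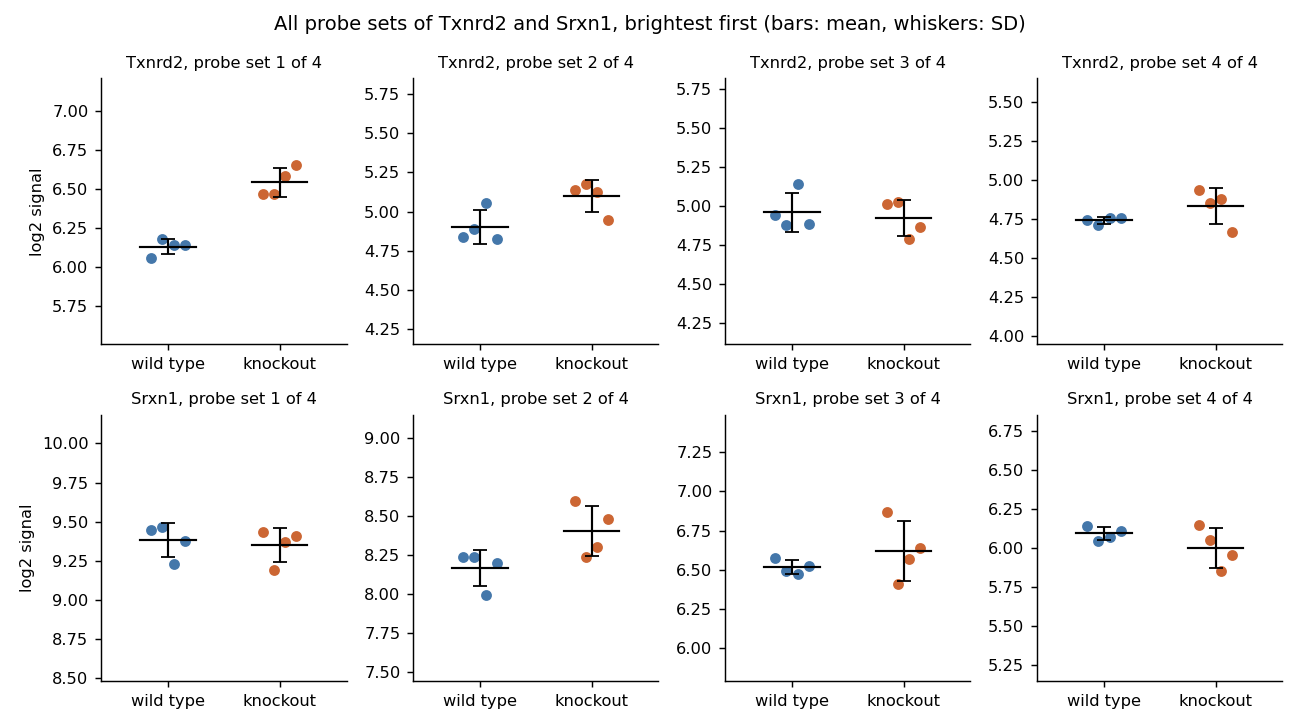
Log2 signal of all 4 probe sets of Txnrd2 (upper row) and of Srxn1 (lower row), brightest first, 1 point per array with mean and SD of 4 arrays per genotype. The genotypes separate on the brightest Txnrd2 probe set, with a difference of 0.41, and overlap on the other panels.

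Glrx, glutaredoxin 1, the cytosolic enzyme that uses glutathione to remove glutathione from protein thiols, moved the other way on both of its probe sets. The first was at 10.88, 10.91, 10.85 and 10.74 in wild type and at 10.52, 10.41, 10.38 and 10.35 in the knockout. The second was at 10.53, 10.49, 10.39 and 10.22 against 10.10, 9.98, 9.92 and 9.89. Wild type 4 was the lowest wild-type array and knockout 1 the highest knockout array on both, and the genotypes did not overlap. The difference on the first was -0.43 (SE 0.05, 95% interval -0.55 to -0.31, adjusted p = 0.000239), which puts the knockout at 0.743 of the wild-type level. The second also fell by 0.43 (SE 0.07, adjusted p = 0.00142), and without wild type 2, knockout 3 and knockout 4 it did not pass (-0.34, adjusted p = 0.0591).

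**Figure D3:**
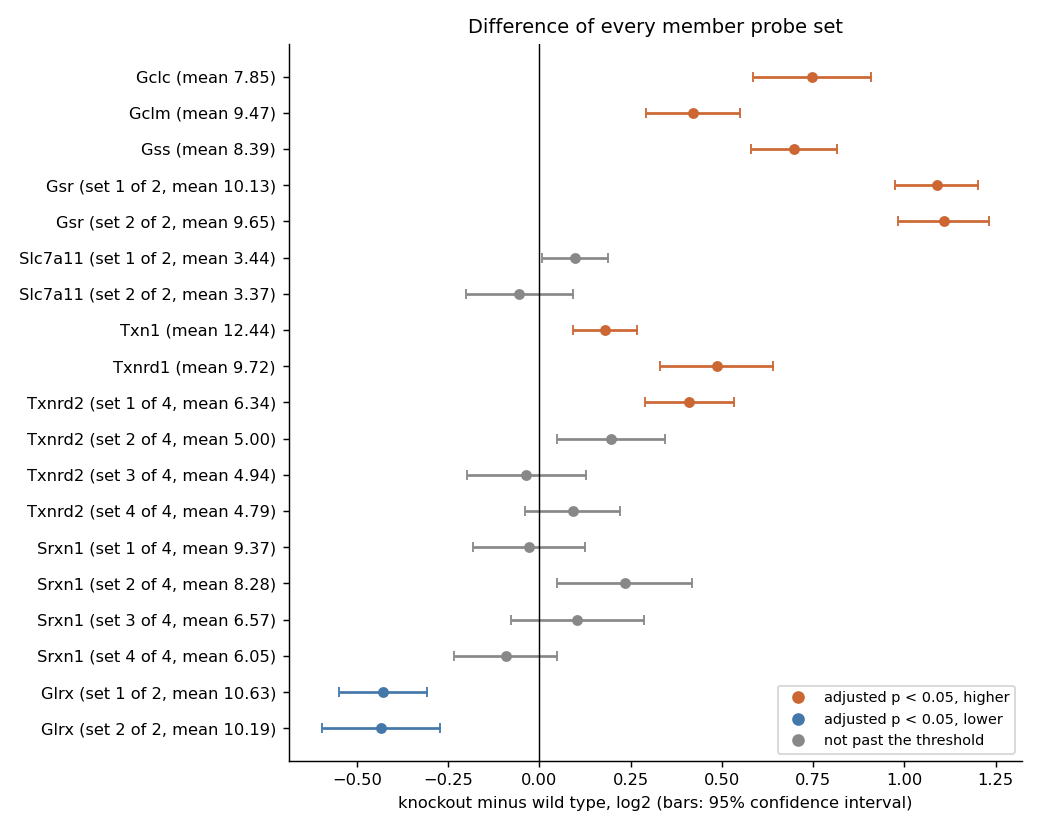
Knockout minus wild type difference in log2 units with its 95% confidence interval for each of the 19 probe sets, coloured by whether it passed an adjusted p of 0.05, with the mean signal over 8 arrays in the label. The pair of Gsr probe sets lies at 1.09 and 1.11 and the pair of Glrx probe sets at -0.43, while the Txnrd2 and Srxn1 probe sets scatter about smaller values.

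Whether members changed by unequal amounts was asked for 5 pairs, with a 2-sided exact permutation test over the 70 assignments of 4 and 4 arrays, whose smallest p is 0.0286. The p values were adjusted over the 5 pairs. At the brightest probe sets, the adjusted p of Gclm against Gclc and of Txnrd1 against Gsr depends on Glrx against Txn1. The outcome of that pair was fixed by the separate differences of its genes. Without it in the adjustment, neither of the others would pass 0.05. The modifier subunit Gclm rose less than the catalytic subunit Gclc, with a difference of -0.33 between their changes (SE 0.08, exact p = 0.0286, adjusted 0.0476), although they form 1 enzyme. Gss against Gclc, the next and the first step of synthesis, differed by -0.049 (SE 0.07, exact p = 0.571). Txnrd1 rose less than Gsr, at -0.60 (SE 0.08, exact p = 0.0286, adjusted 0.0476), a comparison of the reductases of the thioredoxin and glutathione systems. These pairs compare probe sets, whose changes can differ even within 1 gene, as those of Txnrd2 did. Unequal response of the probe sets was not tested.

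The mitochondrial Txnrd2 against the cytosolic Txnrd1 differed by -0.075 (SE 0.04, exact p = 0.2, adjusted 0.25) at their brightest probe sets. With the mean of the Txnrd2 probe sets it differed by -0.32 (exact p = 0.0286, adjusted 0.0357), so that call rests on the choice of probe set. Glrx against Txn1 was at -0.61 (SE 0.05, exact p = 0.0286, adjusted 0.0476). Glrx fell and Txn1 rose, each with no overlap of the genotypes, so this pair had to reach the smallest p. Its test adds nothing to those separate differences.

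**Figure D4:**
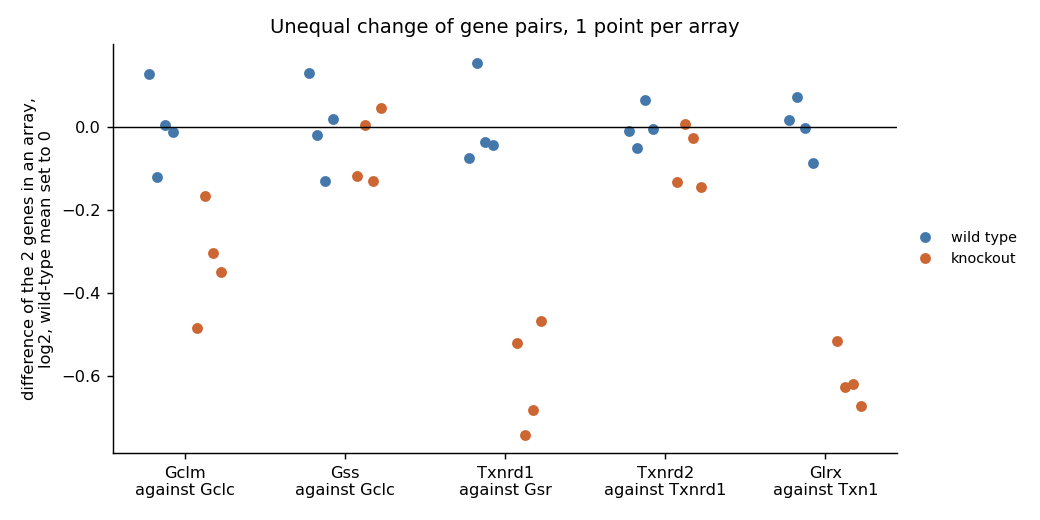
For 5 gene pairs, the log2 difference of the first and the second gene within each array, with the wild-type mean of that pair set to 0 and 1 point per array. Knockout arrays lie below all wild-type arrays for Gclm against Gclc, Txnrd1 against Gsr and Glrx against Txn1, and overlap them for the other pairs.

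Genes that work with these 10 were read from 12 lists, each gene at its brightest probe set, beside a median difference of 0.011 over all genes. Of all genes 16.3% were called higher and 12% lower. Of those at or above the median probe set in their brighter genotype, 24.2% and 16.9% were. The counts of some lists, the other thioredoxins and the selenocysteine genes among them, were near these shares, and no list was tested as a set. In each list up to 3 genes with the smallest adjusted p are named. Slc1a1, Slc3a1, Slc7a9, Cdo1, Cndp2, Nit1, Ggt6, Slc25a39, Abcc1, Txnip, Sesn1, Sesn3, Prdx1, Maff, Ephx1, Fth1, Phgdh, Atf4, Idh1, Idh2, Nnt, Tkt, Taldo1 and Gpx3 were named after their values were seen. Abcc3, Chac1 and Sesn2 each stand in 2 lists. In their brighter genotype, 7 of 10 glutathione breakdown genes and 5 of 6 glutathione peroxidases reached the median probe set. So did 8 of 9 other NRF2 targets and every measured gene of the remaining lists. The genes below that level did not pass.

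In the supply of cysteine and glutamate, 3 of 9 measured genes rose, 4 fell and 2 stayed under the threshold (median -0.049). The genes that rose act on sulfur amino acids inside the cell: Ahcy, which makes homocysteine, by 0.71 (SE 0.05), Cth, which releases cysteine from cystathionine, by 0.85 (SE 0.06), and Cdo1, which oxidises cysteine, by 0.30 (SE 0.07). Without wild type 2, knockout 3 and knockout 4 Cdo1 differed by 0.16 (adjusted p = 0.214). The genes that fell encode carriers in the plasma membrane. Slc3a2, the heavy chain that partners Slc7a11 and other light chains, fell by 0.47 (SE 0.05), and the brush border cystine carrier subunits Slc3a1 and Slc7a9 fell by 0.60 and 0.44. The glutamate and cysteine carrier Slc1a1 fell by 0.57 (SE 0.06). The 2 genes under the threshold encode a carrier and an enzyme inside the cell, so this split covers only the called genes. It was drawn after the values were seen.

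In the breakdown of glutathione, 3 of 10 genes rose, 3 fell and 4 did not pass (median -0.084). The dipeptidase Dpep1, which splits cysteinylglycine at the brush border, fell by 0.70 (SE 0.06), and the peptidases Lap3 and Cndp2 fell by 0.54 and 0.33. Chac2, a cytosolic enzyme that degrades glutathione, rose by 0.64 (SE 0.06), and Ggt6 and Nit1 rose by 0.28 and 0.26. Of 8 genes listed for glutathione export and mitochondrial import, 4 rose, 1 fell and 3 did not pass (median 0.21). Which of them carry glutathione in this tissue was not measured. The exporters Abcc3 and Abcc1 rose by 0.57 and 0.28, and Slc25a39, the mitochondrial glutathione carrier, and Slc25a10 rose by 0.20 and 0.29. Abcc5 fell by 0.60 at its brightest probe set and averaged -0.066 over all its probe sets (adjusted p = 0.195), and Slc25a39 differed by 0.11 with cyclic loess (adjusted p = 0.139). Without wild type 2, knockout 3 and knockout 4 Abcc1 (0.16), Ggt6 (0.24) and Nit1 (0.22) did not pass (adjusted p = 0.0963, 0.0886 and 0.0568).

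Of 10 other thioredoxins and genes listed with them, 3 rose, 1 fell and 6 did not pass (median 0.046). Mitochondrial thioredoxin, Txn2, the substrate of Txnrd2, rose by 0.37 (SE 0.07), and the thioredoxin-like Txnl1 rose by 0.52 (SE 0.06). None of the 3 other probe sets of Txnl1 was called, and its average over all of them was 0.14 (adjusted p = 0.0252). Txnip, which binds and inhibits thioredoxin, fell by 0.56 (SE 0.10). Ripk3, a kinase of necroptosis and no thioredoxin, rose by 0.98 (SE 0.07). Unlike Glrx, the mitochondrial Glrx5 and Glrx2 and the cytosolic Glrx3, of which Glrx5 and Glrx3 serve iron-sulfur clusters, rose by 0.61, 0.26 and 0.43. The sestrins Sesn1 and Sesn3 fell by 0.52 and 0.24 in the same list, in which 3 of 6 genes rose, 2 fell and 1 did not pass (median 0.13). Sesn3 was not called without any 1 of wild type 2, wild type 3, knockout 3 or knockout 4 (adjusted p = 0.0586 to 0.0815), and its mean over probe sets was -0.013 (adjusted p = 0.919).

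All 4 measured peroxiredoxins rose (median 0.34), the mitochondrial Prdx3 by 0.73 (SE 0.04), the secretory pathway Prdx4 by 0.41 (0.24 averaged over its probe sets, adjusted p = 0.00208) and the cytosolic Prdx2 and Prdx1 by 0.28 and 0.21. Of 6 glutathione peroxidases 2 rose and 4 did not pass (median 0.098), with the epithelial Gpx2 at 0.56 (SE 0.08) and Gpx1 at 0.17 (SE 0.04). The secreted Gpx3 differed by -0.19 (adjusted p = 0.0991), and without knockout 2 it was called lower at -0.25 (adjusted p = 0.0219). With cyclic loess Prdx1 differed by 0.11 (adjusted p = 0.0831) and Gpx1 by 0.075 (adjusted p = 0.283), neither of which passed. Without wild type 2, knockout 3 and knockout 4 they did not pass either (adjusted p = 0.0512 for Prdx1 and 0.0719 for Gpx1).

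NADPH is the electron source of Gsr and the thioredoxin reductases, and of 8 genes of its supply and of the pentose phosphate pathway 6 rose and 2 did not pass (median 0.31). Among those whose enzymes make NADPH, malic enzyme Me1 rose by 1.41 (SE 0.11), Pgd by 0.78, Idh2 by 0.33 and Idh1 by 0.20, and Nnt differed by -0.10 (adjusted p = 0.299). Pgls, Tkt and Taldo1 act in the pentose phosphate pathway without making NADPH; Pgls and Tkt rose by 0.38 and 0.29, and Taldo1 differed by 0.12 (adjusted p = 0.0663). G6pdx, also in that list, was not read. Idh2 averaged over its probe sets was at 0.096 (adjusted p = 0.142). Idh1 did not pass with cyclic loess (0.10, adjusted p = 0.177), with hybridization controls as a covariate (adjusted p = 0.114) or without any 1 of wild type 1, wild type 3 or knockout 3 (adjusted p = 0.0592 to 0.0660). Taldo1 passed with median centring, with averaged probe sets and with eBayes trend and robust (adjusted p = 0.0136 to 0.0323).

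Thioredoxin reductases carry selenocysteine, and of 7 genes of its synthesis and insertion 2 rose and 5 did not pass (median 0.018), namely Pstk by 0.46 (SE 0.07; 0.28 averaged with its other probe set, which was not called) and Eefsec by 0.23 (SE 0.07, adjusted p = 0.0472). The Eefsec call was lost without any 1 of wild type 2, wild type 3, knockout 1, knockout 2 or knockout 4 (adjusted p = 0.0801 to 0.116), and also with cyclic loess, array weights and eBayes trend and robust.

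Of 7 NRF2 regulators 1 rose, 3 fell and 3 did not pass (median -0.16), with 3 called higher under median centring and 2 without wild type 3, with the replicate block, with the filter on dim probe sets, and with 1 or averaged probe sets per gene. Keap1 and Sqstm1, also in that list, were not read. Nfe2l2, which encodes NRF2, rose by 0.47 (SE 0.07) and by 0.29 averaged over its probe sets (adjusted p = 0.00112). Bach1, which represses NRF2 targets, fell by 0.52 (SE 0.09), and the small Maf genes Mafk and Maff fell by 0.54 and 0.45. Of 9 other NRF2 targets 6 rose, 2 fell and 1 did not pass (median 0.38); Gsta4 and Gstm1, among those that rose, are glutathione S-transferases, and Abcc3 is the exporter given above. Gsta4, Gstm1 and the quinone reductase Nqo1 rose by 1.99, 1.58 and 0.95, with Gstm1 at 1.04 averaged over its probe sets, and Ephx1 and Fth1 fell by 0.42 and 0.16. The Ephx1 call was lost without wild type 3 (adjusted p = 0.0522). Without wild type 2, knockout 3 and knockout 4 neither Ephx1 (adjusted p = 0.0624) nor Fth1 (adjusted p = 0.148) passed.

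Of 10 genes of the ATF4 response, the other known regulator of Slc7a11, 4 rose, 1 fell and 5 did not pass (median -0.035). The serine synthesis genes Psat1 and Phgdh rose by 1.06 and 0.44, Asns by 0.74 and Ddit4 by 0.90. Atf4 itself fell by 0.27 (adjusted p = 0.0153), and averaged over its probe sets it differed by -0.079 (adjusted p = 0.357). Slc7a11, whose printed stretch holds the amino acid element in both orientations, stayed at the low signals given above.

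**Figure D5:**
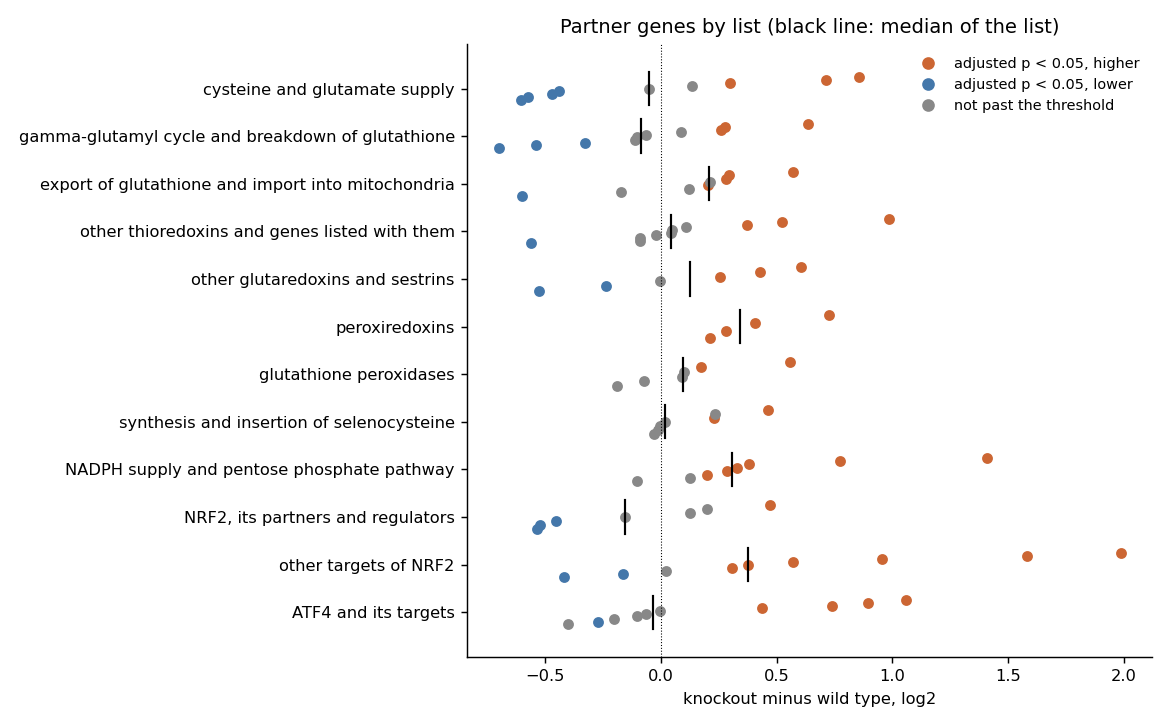
Knockout minus wild type difference in log2 units of each measured gene of the 12 partner lists, coloured by whether it passed an adjusted p of 0.05, with a black line at the median of each list. The 4 peroxiredoxins lie to the right of 0, and the cysteine supply list splits into genes that rose by 0.30 to 0.85 and genes that fell by 0.44 to 0.60, with 2 between them that did not pass.

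The tissue changed in cell type markers too, and in whole ileum fewer cells of a type and less RNA per cell cannot be told apart. Beside the marker counts stand the shares of all genes called, 16.3% higher and 12% lower. At or above the median probe set in the brighter genotype these shares were 24.2% and 16.9%. The ileal markers Fabp6 and Slc10a2 were bright in wild type (13.11 and 11.42). Slc10a2 fell by 0.45, Slc51b fell by 0.36 and Cubn fell by 1.61, and Fabp6 and Fgf15 did not pass, though with eBayes trend and robust Fabp6 passed (0.075, adjusted p = 0.0403). The Slc51b call was lost without wild type 2, knockout 3 and knockout 4 (adjusted p = 0.0617). General epithelial markers had mean log2 signals of 12.14 to 12.19 on the wild-type arrays and 12.10 to 12.18 on the knockout arrays, with 2 of 8 higher and 2 lower, or 1 higher and 5 lower with cyclic loess. Mature enterocyte markers fell in 7 of 8, from 10.33 to 10.52 down to 9.64 to 9.74, and cell cycle markers of the crypt rose in 7 of 9, from 8.39 to 8.51 up to 8.84 to 9.02, with 4 called without wild type 2, knockout 3 and knockout 4.

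Smooth muscle markers fell in 8 of 8, from 9.18 to 9.59 down to 8.42 to 8.69. T lymphocyte markers fell in 9 of 10, from 6.85 to 7.03 down to 5.53 to 5.82. B lymphocyte markers fell in 4 of 5 and myeloid markers in 4 of 7, while goblet and Paneth markers rose in 1 and fell in 2 of 7. The goblet and Paneth counts are small and were not tested against the shares of all genes. In the marker lists, 1 T lymphocyte, 1 B lymphocyte and 1 myeloid marker stayed under the median probe set in either genotype. The part of these shifts in the differences of the 10 genes was not tested.

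Array medians were 4.56 to 4.604, and correlations across probe sets were 0.996 to 0.998 within a genotype and 0.988 to 0.992 between them. The mean of the hybridization controls was 8.83 to 9.15 on the wild-type and 8.74 to 9.02 on the knockout arrays. The 3' minus 5' difference of the Gapdh control, a sign of RNA quality, was 0.18 to 0.34 in wild type and 0.059 to 0.21 in the knockout, and that of the Actb control 0.38 to 0.47 and 0.42 to 0.47. The highest signal of an array was 13.31 to 13.38 in wild type and 13.23 to 13.29 in the knockout. The part of these in the differences of the 10 genes was not tested. Scan dates and array strips are not given in the sources used here, so a batch that runs with genotype and the genotype cannot be told apart.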

How the data were processed

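Total RNA from ileum was labelled with a 3' in vitro transcription kit and hybridised to Affymetrix arrays, per the labels' protocols. The values are the authors' deposited log2 signals per probe set, made with RMA per the submitters' processing notes, whose software version is not given in the sources used here. The table holds no detection calls. The 8 samples are numbered as biological replicates, 4 per genotype, and this number limits the precision.

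Of 45141 probe sets, 104 controls were left out. Of the rest, 28898 had 1 gene symbol, 551 several and 15588 none listed; 28689 were matched by Entrez identifier to RefSeq (GRCm38.p6) to update symbols. All 45037 were fitted without a filter in limma 3.58.1 (R 4.3.3; lmFit and eBayes), 2-sided, with Benjamini-Hochberg adjustment over all of them and a threshold of 0.05, and the fit was tested on simulated data. A gene was read at its probe set with the highest mean over 8 arrays. Of 63 list genes named with their values, 30 had other probe sets. Another probe set was called the same way for 18 of these and the opposite way for 0. Tkt, Slc25a10, Prdx1 and Abcc1 were among those whose other probe set was not called. Pairs of members were compared by exact permutation. Named were all members, the ileal markers and up to 3 called genes per list with a brighter genotype at or above the median probe set. The members and lists were chosen with earlier results of these data known. Alternatives were a filter on dim probe sets, other normalisations (quantile, median centring, cyclic loess), 1 or averaged probe sets per gene, array weights, a block for replicate number, eBayes with trend and robust, hybridization controls as a covariate, a threshold of 0.01 and leaving out arrays. Figures were drawn with matplotlib 3.10.9.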

Additional observations from a re-analysis of the deposited data

Results flagged for a closer look

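In 10 of 166 groups of 4 arrays, 1 array stood apart from the other 3 by a gap above Dixon's 95% critical value; chance alone sets apart about 1 in 20 groups. Among the members this held for 1 probe set: the second of Srxn1, where wild type 3 was at 7.996 and the other wild-type arrays at 8.20 to 8.24. Among the partner genes, knockout 4 was the lowest knockout array for Cndp2 at 11.49 and the highest for Txn2 at 9.32 and Glrx5 at 10.03. Wild type 2 was the lowest wild-type array for Abcc1 at 6.05. Wild type 4 was the highest for Me1 at 7.22 and the lowest for Atf4 at 9.72. Knockout 1 was the lowest knockout array for Sesn1 at 8.996. Knockout 3 was the highest for Pgd at 11.33, and knockout 2 the highest for Fth1 at 12.004.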

How the results depend on the processing

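The count of member genes called higher was 7 in all fits except cyclic loess and the fit without wild type 2, knockout 3 and knockout 4, the 3 arrays with the lowest hybridization controls, where it was 6 without Txn1. Glrx was called lower at its brightest probe set in every alternative run. Without those 3 arrays 1 member probe set was called lower in place of 2, and 5943 probe sets were called in all against 9729; at a threshold of 0.01 there were 6125. A call lost without those 3 arrays does not by itself show a smaller difference, since fewer arrays are left. Cyclic loess gave 47.5% of calls as higher against 54.6%. With the mean of the probe sets of each gene, the Txnrd2 against Txnrd1 difference was -0.32 and passed. The mean of the Srxn1 probe sets differed by 0.054, where the brightest alone differed by -0.029. On leaving out 1 array, the brightest Srxn1 probe set ran from -0.081 to 0.023, positive without knockout 2. The third Txnrd2 probe set turned to 0.034 with hybridization controls as a covariate and to 0.031 without the 3 arrays, and on leaving out 1 array it ran from -0.071 to 0.024, positive without wild type 3 (0.024) and without knockout 3 (0.0081). Neither of these probe sets passed in any alternative, nor did the Srxn1 mean. Fabp6 turned to -0.030 with cyclic loess and passed with eBayes trend and robust. The causes were not tested. With the replicate number as a block, 10 member probe sets were called higher in place of 8, the added ones being the second of Srxn1 and the second of Txnrd2, and 9907 probe sets in all. The deviations of same-numbered arrays correlated at 0.24, -0.097, 0.077 and 0.16. Wild type 1 and wild type 4 correlated best with the knockout array of their own number, and wild type 2 and wild type 3 did not. These values do not settle whether the numbers pair the samples. With no detection calls, values near the lowest signals of the array, those of Slc7a11 among them, have no stated detection limit.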
